A study of Mus musculus with 10 samples.

Results

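LMPP-opened regions that had no peak without IRF8 are stretches of chromatin detected as open from the lymphoid-primed multipotent progenitor (LMPP) onward in wild-type (WT) mouse bone marrow, and undetected in monocyte-dendritic cell progenitors (MDP) deficient for IRF8. They were chosen from peak lists of ATAC-seq, an assay that reads where a transposase can cut chromatin. Peaks of 10 libraries were merged into 114366 regions. A region was LMPP-opened when neither long-term hematopoietic stem cell (LT-HSC) library had a peak there and both libraries of WT LMPP, WT MDP and WT common dendritic cell progenitors (CDP) did, which held for 5976 regions. Of these, the 1516 with a peak in neither IRF8KO MDP library are described here. Detection in these 10 lists chose the regions, so their presence and absence is a description and carries no test.

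The IRF8KO MDP were sorted as lineage-negative, Sca-1-, CD117+, IL-7R- and CD115+ cells from mice labelled IRF8-deficient, and WT MDP through the same gate. WT LT-HSC were lineage-negative, CD117+, Sca-1+, CD135-, CD48- and CD150+, WT LMPP were lineage-negative, CD117+, Sca-1+ and CD135+, and WT CDP were lineage-negative, Sca-1-, CD117int, IL-7R-, CD115+ and CD135+. All mice were C57BL/6, and each of the 5 groups had 2 libraries, from cells enriched magnetically and then sorted by flow cytometry. The LMPP libraries were named by their titles, while their cell type label says short-term stem cells. The labels give neither the Irf8 allele, nor the animals' age, nor how many animals went into a library, and the series text, which calls the WT libraries biological duplicates, does not mention the knockout.

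IRF8, an interferon regulatory factor, is a DNA-binding protein needed for monocytes and for several dendritic cell lineages. It binds DNA weakly alone. With the ETS factor PU.1 it binds composite ETS-IRF elements, and with other IRF proteins it binds interferon-stimulated response elements (ISRE). Mice without IRF8 make many neutrophils and lack some types of dendritic cells. LMPP retain lymphoid and myeloid potential, MDP can form monocytes and dendritic cells, and CDP form dendritic cells.

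Few of the regions lay at a gene's start, and those that did are shown first because they are the ones whose sequence could be read. Promoter windows reaching from 250 bases before to 50 bases after a start site came from RefSeq (GRCm38.p6). The regions overlapped 40 such windows of 39 genes. In 29 genes the 250 bases before the start lay wholly inside the region, and 7 of these held the letters of an ETS-IRF core (GGAANNGAA) or an ISRE core (GAAANNGAA) on either strand. Of the 7, 6 are printed 5′ to 3′ on the gene's strand, the other being the divergent partner of Wdr86 in the same region. Capitals mark these cores and the PU.1 letters GAGGAAGT, in either orientation.
Tlr11, chr14:50357664-50357913, + strand: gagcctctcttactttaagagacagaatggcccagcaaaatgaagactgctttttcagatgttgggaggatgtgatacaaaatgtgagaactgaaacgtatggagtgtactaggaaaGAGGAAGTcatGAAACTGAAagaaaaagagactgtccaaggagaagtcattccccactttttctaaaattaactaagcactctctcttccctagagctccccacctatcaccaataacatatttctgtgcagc
Wdr86, chr5:24730681-24730930, - strand: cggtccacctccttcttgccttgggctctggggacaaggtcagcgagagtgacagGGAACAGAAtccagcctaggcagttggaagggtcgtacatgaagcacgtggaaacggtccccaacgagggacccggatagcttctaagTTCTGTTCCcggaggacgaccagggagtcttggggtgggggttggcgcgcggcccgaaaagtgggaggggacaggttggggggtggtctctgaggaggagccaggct
Gm33100, chr5:96879092-96879341, + strand: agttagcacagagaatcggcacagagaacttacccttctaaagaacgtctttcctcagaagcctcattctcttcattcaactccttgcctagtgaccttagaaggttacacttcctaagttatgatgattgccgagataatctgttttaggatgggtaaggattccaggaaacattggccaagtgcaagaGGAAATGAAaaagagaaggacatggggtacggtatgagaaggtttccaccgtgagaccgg
Gm33781, chr10:82934638-82934887, - strand: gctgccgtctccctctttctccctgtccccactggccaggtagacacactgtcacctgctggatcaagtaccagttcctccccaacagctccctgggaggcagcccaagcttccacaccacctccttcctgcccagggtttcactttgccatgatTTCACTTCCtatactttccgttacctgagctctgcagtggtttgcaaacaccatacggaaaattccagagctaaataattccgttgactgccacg
Asb5, chr8:54577201-54577450, + strand: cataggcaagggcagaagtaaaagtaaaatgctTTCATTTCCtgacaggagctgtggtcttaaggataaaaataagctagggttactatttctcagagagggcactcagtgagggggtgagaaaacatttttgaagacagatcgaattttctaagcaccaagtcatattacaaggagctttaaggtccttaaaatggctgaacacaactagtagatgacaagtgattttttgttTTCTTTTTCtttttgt
Ccdc184, chr15:98167556-98167805, + strand: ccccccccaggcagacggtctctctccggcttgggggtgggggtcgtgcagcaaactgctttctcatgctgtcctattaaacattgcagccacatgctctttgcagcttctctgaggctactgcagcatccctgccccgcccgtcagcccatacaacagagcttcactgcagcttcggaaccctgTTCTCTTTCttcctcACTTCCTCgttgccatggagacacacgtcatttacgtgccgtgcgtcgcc
The PU.1 letters of Tlr11, a sensor of Toxoplasma profilin, begin 133 bases before the start and its ISRE core begins 122 bases before it. In Ccdc184 the ISRE core begins 65 bases and the PU.1 letters begin 50 bases before the start. Wdr86 holds 2 ETS-IRF cores, which begin 195 and 107 bases before its start. Gm33100 and Gm33781 are named but not protein-coding in the gene table used.

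Across the 40 overlapped windows of 300 bases, the ETS-IRF core was found in 15% (6 of 40, 95% Wilson interval 7.06 to 29.1%). It was found in 9.43% of 212 windows overlapped by LMPP-opened regions kept in both IRF8KO MDP libraries, and in 8.17% of all 32412 windows searched. The PU.1 letters were found in 17.5% (8.75 to 32.0%), against 8.49% for kept regions and 3.12% of all windows. The ISRE core was found in 12.5%, against 15.6% for kept regions and 8.51% of all windows, and the ETS-IRF or the ISRE core in 25.0%, against 22.6% for kept regions and 15.7% of all windows. The windows are not all distinct, since both windows of Hrh2 share a PU.1 match and those of Wdr86 and its divergent partner share their ETS-IRF cores, so the intervals are too narrow. With each region counted once, a choice made after seeing the data, 5 of 38 held an ETS-IRF core (13.2%, against 9.63% of 187 kept regions), and 6 of 38 held PU.1 letters (15.8%, 7.44 to 30.4%, against 9.09%). With 40 windows the intervals of the ETS-IRF and ISRE shares include the shares of the kept regions, and that of the PU.1 share overlaps the kept regions' interval of 5.44 to 13%. Of the other motifs, RUNX letters (TGTGGTTT) were in 5%, AP-1 letters (TGANTCA) in 2.50%, C/EBP letters (TTGCNNAA) in 2.50% and GATA letters (AGATAAG) in 0 of 40 windows, whose upper limit is 8.76%. Windows of kept regions held AP-1 letters in 11.3% and C/EBP letters in 15.1%, and all windows held the RUNX, AP-1, C/EBP and GATA letters in 1.80%, 7.81%, 10.9% and 3.03%. The motifs can overlap one another, PU.1 letters sharing the GGAA of an ETS-IRF core for example, and a match of letters is not a measured binding site.

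The library totals set how far a missing peak can be read. IRF8KO MDP lists held 50728 and 54277 peaks, against 62130 and 64515 in WT MDP, with 43.7 and 43.9% of tags within peaks against 51.3 and 53.7%. LT-HSC replicate 1 stood apart with 31325 peaks, against 52147 in replicate 2, and the LMPP and CDP lists held 63349 to 69598. Total tags were 4790046 and 5313729 in IRF8KO MDP, 5394861 and 5328234 in WT MDP, and 5479825 to 10166833 in the other 6 libraries. Around Irf8 itself, 13 and 16 of 34 merged regions were detected in IRF8KO MDP, against 21 and 17 in WT MDP, which does not test the deletion. Of 83 regions near 5 marker genes of the MDP (Csf1r, Irf8, Ccr2, Ly6c2 and F13a1), 33 and 38 were detected in IRF8KO MDP and 47 and 43 in WT MDP, and of 86 near 5 LT-HSC markers 57 and 66 were detected in LMPP and 20 and 54 in LT-HSC. Among 99 regions near neutrophil genes, 56 and 63 were detected in IRF8KO MDP, against 63 in each WT MDP library. The part of list length and of cell composition in the missing peaks was not tested beyond the settings given below. In sorted cells, fewer cells with a site open and less opening per cell cannot be told apart.

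Without IRF8, 25.4% of the LMPP-opened regions had no peak in MDP (1516 of 5976, 95% Wilson interval 24.3 to 26.5%, counting error only). Both IRF8KO MDP libraries kept a peak at 60.8% (3632 regions), and 1 of the 2 kept it at 13.9% (828 regions). The same absence was found at 19.4% of all regions with a peak in both WT MDP libraries (10283 of 53073), at 2.65% of those detected in every WT library (551 of 20770), and at 56.6% of those first detected in WT MDP and present in CDP (4447 of 7853). LMPP-opened regions stood between regions open at all stages and regions first detected in MDP. The 1516 regions made up 14.7% of the 10283 regions with a peak in both WT MDP libraries and none in IRF8KO MDP. As a further base for the rule, 27% of regions with a peak in both WT LMPP libraries had none in LT-HSC (14520 of 53784).

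Absence in 1 knockout library was mostly shared with the other. IRF8KO MDP replicate 1 lacked a peak at 1999 LMPP-opened regions, and replicate 2 also lacked one at 75.8% of these (73.9 to 77.7%). Where replicate 1 had a peak, replicate 2 lacked one at 8.67% (345 of 3977). In the other direction, replicate 2 lacked a peak at 1861 regions, of which 81.5% also lacked one in replicate 1, against 11.7% (483 of 4115) where replicate 2 had one. The choice was sharp in some libraries and soft in others. A single library broke the pattern at 3060 further regions. Of these, 714 had a peak in LT-HSC replicate 2 and 26 in LT-HSC replicate 1, 345 and 483 had a peak in IRF8KO MDP replicate 1 and 2, 496 and 367 lacked one in WT LMPP, 288 and 215 in WT MDP, and 43 and 83 in WT CDP. Where the extra peak was in IRF8KO MDP, it sat late in that list, at a median 85.1% of the rows in replicate 1 and 81.2% in replicate 2.

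The comparison with the background rested on LT-HSC replicate 2. Without that library 12575 regions counted as LMPP-opened and 2230 of them, 17.7%, had no IRF8KO MDP peak, which is below the 19.4% of all WT MDP regions. With every list trimmed to its first 31325 rows, the length of the shortest, the share was 23.8% (422 of 1773) against a background of 14.8%, and the trimmed set overlapped 119 of the 1516 regions (7.85%).

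The peaks of these regions stood nearer to the head of the lists in CDP than in MDP, and in MDP than in LMPP. The lists give no peak height, and row position, the percent of the list's rows passed before a peak is reached, stands in for strength on the assumption that strong peaks come first. The median row position was 65.7 and 62.6% in the WT LMPP lists, 54.6 and 55.4% in the WT MDP lists, and 41.3 and 43.9% in the WT CDP lists. The 3 pairs of libraries did not overlap, and LMPP had the latest rows. Means of the 2 medians were 64.2 ± 2.26% in LMPP, 55.0 ± 0.59% in MDP and 42.6 ± 1.78% in CDP (SD, n = 2 each). The difference was -9.15 points for MDP minus LMPP and -12.4 points for CDP minus MDP, each larger than the SDs, with an exact permutation p of 0.333 (two-sided), the smallest that 2 against 2 libraries allow. With lists of equal length the second difference was -4.69 points and the first was -9.62. The regions were selected on detection in these same lists and on absence in LT-HSC and IRF8KO MDP. The part of that choice in the order of stages was not tested. The 714 regions left out only by a peak in LT-HSC replicate 2 had medians of 52.1 and 50.4% in LMPP. Their medians were latest in MDP, at 61.9 and 61.5%, and were 48.2 and 51.3% in CDP. MDP was also the latest for the 26 regions left out by LT-HSC replicate 1. The 345 and 483 regions left out by a peak in IRF8KO MDP replicate 1 or 2 kept the order of the 1516. Replicates ordered the 1516 regions alike more closely at later stages, with Spearman correlations across regions of 0.669 in LMPP, 0.833 in MDP and 0.928 in CDP, a description without a test.

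**Figure D1:**
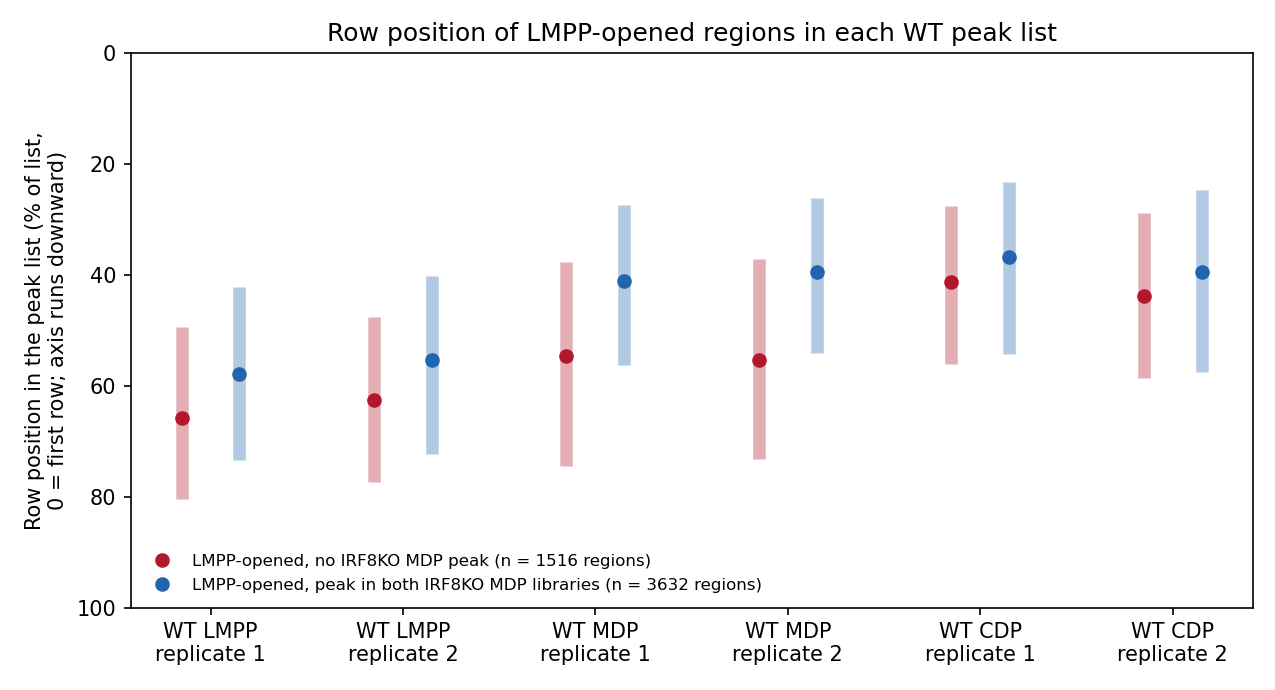
Row position (percent of the list, the first row at the top) of the 1516 LMPP-opened regions with no IRF8KO MDP peak, in red, and of the 3632 with a peak in both IRF8KO MDP libraries, in blue, in each of 6 WT lists. Points are medians over regions and bars span the 25th to 75th percentile; the gap between red and blue is widest in the WT MDP lists, at 13.6 and 15.9 points.

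Compared with the 3632 kept regions, the regions without a knockout peak sat later in every WT list, and most so in MDP. Kept regions had median rows of 57.9 and 55.4% in LMPP, 41.0 and 39.5% in MDP, and 36.9 and 39.4% in CDP. The gap was 7.86 and 7.12 points in LMPP, 13.6 and 15.9 points in MDP, and 4.48 and 4.42 points in CDP. The gap in MDP exceeded that in LMPP by 7.25 points, and the gap in CDP minus that in MDP was -10.3 points. Detection in IRF8KO MDP, the same stage, split these regions from the kept ones. The gaps are therefore a description and carry no test. The 828 regions with a peak in 1 IRF8KO MDP library had medians of 62.5 and 61.8% in LMPP, 55.8 and 56.8% in MDP, and 42.7 and 45.5% in CDP. These are close to the medians of the regions without a knockout peak, so the late MDP rows are not particular to the latter. Row position thus set the kept regions apart from both other sets, and its part in the missing peaks was not tested.

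Region by region, the order of stages differed from that of the kept regions at MDP. Both WT CDP rows were earlier than both WT MDP rows in 58.6% of the regions without a knockout peak (888), against 38.4% of kept regions and 33.2% of the 33555 regions with a peak in all 6 lists. Both WT MDP rows were earlier than both WT LMPP rows in 46.4% (704), against 58.8% of kept regions and 42.1% of all. Rows were earlier at each step without overlap in 24.8% (376), against 21.6% of kept regions and 12.9% of all, and latest in MDP in 15.5% (235), against 7.46% and 11.9%. A share of 7.32% (111) were earliest in MDP, against 17.5% of kept regions and 13.7% of all. These shares describe regions selected on detection in the same lists, so none was tested.

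**Figure D2:**
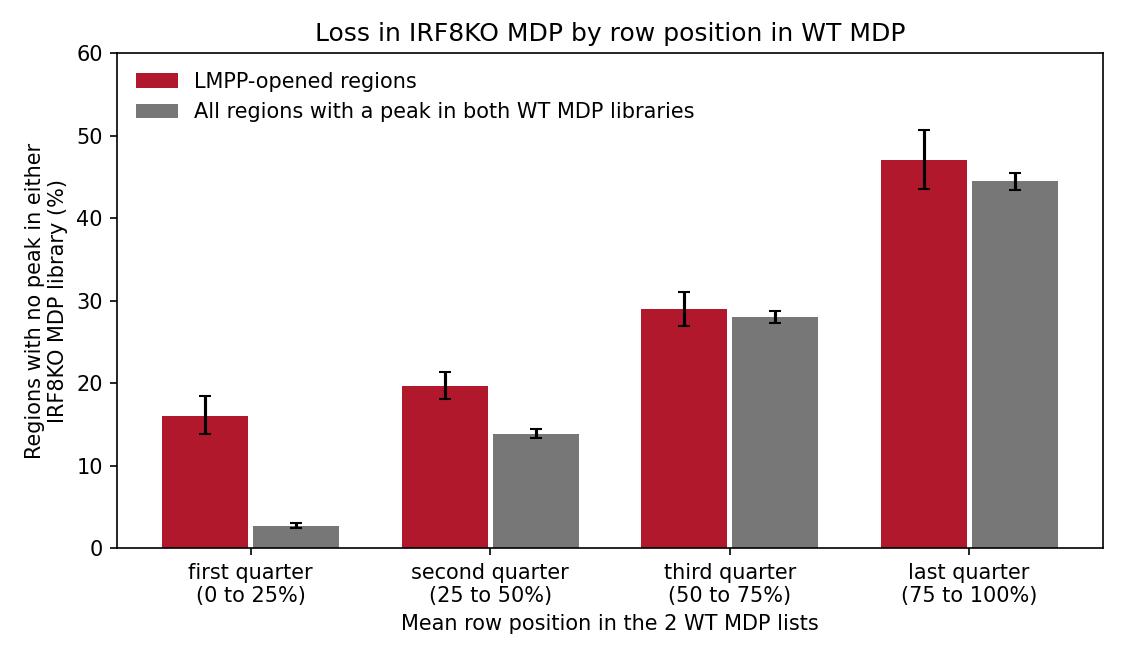
Share of regions with no peak in either IRF8KO MDP library (percent) by their mean row position in the 2 WT MDP lists, in 4 steps of 25% of the list. Red bars are LMPP-opened regions, grey bars all regions with a peak in both WT MDP libraries, and lines are 95% Wilson intervals; among the earliest rows the share is 16.0% against 2.74%, and among the last 47.0% against 44.5%.

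At the head of the WT MDP lists, a larger share of LMPP-opened regions than of all regions lacked a knockout peak, and toward the tail the shares were close. In the first 25% of rows 16.0% of LMPP-opened regions had no IRF8KO MDP peak (159 of 991), against 2.74% of all WT MDP regions (420 of 15351). The shares were 19.7% against 13.9% in rows from 25 to 50%, 28.9% against 28.0% in rows from 50 to 75% and 47.0% against 44.5% in the last 25%. Of the 15351 regions in the first 25%, 7476 lay over 1 kb from any gene end. Among regions that far from a gene end, the shares in the first 25% of rows were 16.3% (14.1 to 18.8%) for LMPP-opened regions and 5.26% (4.77 to 5.79%) for all WT MDP regions, and 20.5% and 16.3% in rows from 25 to 50%. By LMPP rows the share of LMPP-opened regions was, over the same 4 steps, 13.3, 20.6, 25.9 and 32.2%, and by CDP rows it was 20.3, 27.1, 27.5 and 24.3%. Row position was not matched within a step of 25%, and the split by rows was not rerun without LT-HSC replicate 2.

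Peak widths followed the same order of stages. Width is tied to row position within each list, with Spearman correlations from -0.865 to -0.813, so it is not a separate result. Median widths were 501 bp in both WT LMPP lists, 628 and 627 bp in WT MDP and 760 and 755 bp in WT CDP, where 501 bp is the most common peak width in the 10 lists. The stages did not overlap, and the differences were 126.5 bp for MDP minus LMPP and 130 bp for CDP minus MDP (exact permutation p = 0.333 each). With means over regions in place of medians they were 43.0 and 186 bp. Peaks of at most 501 bp made up 54.2 and 50.5% of the regions in LMPP, 41.4 and 46.8% in MDP and 15.5 and 20.2% in CDP. Kept regions had medians of 627 and 628 bp in LMPP, 650 and 632 bp in MDP and 799 and 768 bp in CDP. The 828 regions with a peak in 1 IRF8KO MDP library had 501 and 626 bp, 629 and 626 bp, and 757 and 744.5 bp. Peaks of all WT MDP regions, where detected, had medians of 783 and 793 bp in LMPP, 661 and 634 bp in MDP and 897 and 870 bp in CDP. There the step from LMPP to MDP ran the other way. Whole lists had medians of 684 and 659 bp in CDP, against 629 to 636 bp in LMPP and MDP. Total tags were highest in the CDP libraries (10166833 and 7985428). The part of depth and of the choice of regions in the widths was not tested.

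**Figure D3:**
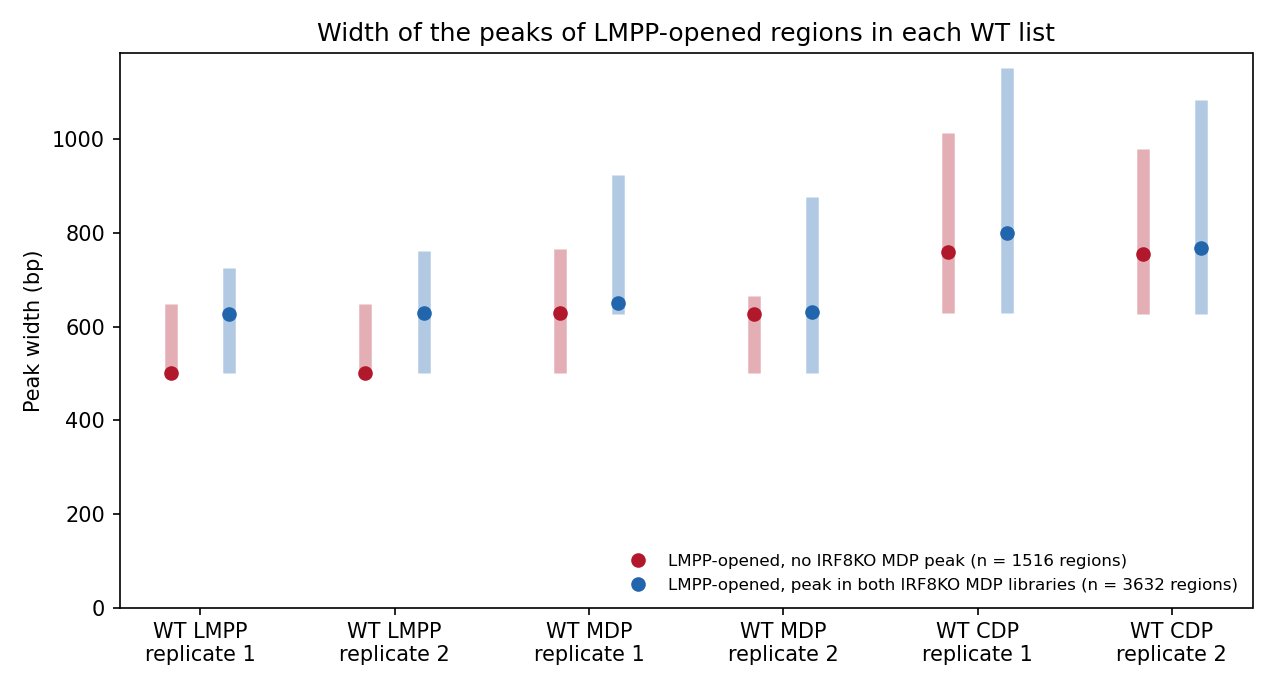
Peak width (bp) of the same 2 sets of regions in each of 6 WT lists, those with no IRF8KO MDP peak in red and those kept in blue. Points are medians over regions and bars span the 25th to 75th percentile; red medians stand at 501 bp in both LMPP lists and at 760 and 755 bp in the CDP lists.

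Most regions lay far from gene ends. Within 1 kb of the end of a protein-coding gene were 5.01% (76 of 1516, 4.02 to 6.23%), against 7.21% of kept regions (6.42 to 8.10%). The share was 24.1% of all WT MDP regions and 14.8% of all merged regions. A share of 52.2% (791) had its centre inside a gene, against 49.8% of kept regions and 57.7% of all WT MDP regions. No gene lay within 100 kb of 10.2% (155), against 8.56% of kept, 6.29% of all WT MDP and 8.58% of all merged regions. The gene table has no exons, so exon, intron and UTR were not assigned. Promoter windows were overlapped by 2.58% (38 of the 1475 regions outside chromosome 18, whose windows were not used here), against 5.33% of kept regions. By chromosome, the regions were between 21.9% of the LMPP-opened regions, on chromosome 1, and 31.3%, on chromosome 19.

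What surrounded the regions was mostly still detected in the knockout, at shares slightly below those of all WT MDP regions that were not LMPP-opened. A further such region lay within 50 kb for 15.7% (238), with a median of 380 kb to the next, against 38.7% and 83.0 kb among the 3632 kept regions, a larger set. Of WT MDP regions that were not LMPP-opened and lay within 50 kb of these regions but of no kept one, 70.4 and 74.1% were detected in the 2 IRF8KO MDP libraries, and 22.2% (782 of 3520, 20.9 to 23.6%) in neither. Within 50 kb of kept regions alone, 77.3 and 80.0% were detected and 16.6% (16.0 to 17.3%) were in neither. Over all 47097 WT MDP regions that were not LMPP-opened, 75.3 and 77.8% were detected and 18.6% were in neither. The nearest IRF8KO MDP peak was a median 9.21 kb away from centre to centre, and within 10 kb for 52.5% (796). Of the 1197 genes nearest to a region, 1068 also had a WT MDP region that was kept in both knockout libraries, and 383 had a kept LMPP-opened region. No share over all genes or other regions stands beside these distances and gene counts. They are not read as particular to the regions.

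Genes of conventional dendritic cells had 7 of the regions, among 24 LMPP-opened ones (29.2%, against 25.4% overall). Each region is assigned to the nearest protein-coding gene within 100 kb, which need not be the gene it acts on. At Zbtb46, a zinc finger factor that marks conventional dendritic cells, the region chr2:181435777-181437317 lay inside the gene. Its rows were 70.5 and 90.3% in LMPP, 27.3 and 19.6% in MDP and 4.54 and 3.95% in CDP. The stages did not overlap, and the peak stood in the tail of the LMPP lists and among the first rows of CDP. Within 30 kb of its centre, IRF8KO MDP had 3 and 4 peaks, against 7 and 7 in WT MDP. Such counts include the region itself, whose presence and absence the rule fixed, and no share over other loci stands beside them. At Tlr11 the region chr14:50357100-50358367, which holds the promoter printed above, had rows of 47.7 and 82.9% in LMPP, 17.3 and 16.6% in MDP and 11.8 and 11.5% in CDP. There, too, the stages did not overlap, although the LMPP replicates were far apart. IRF8KO MDP had 1 and 0 peaks within 30 kb of it, against 3 and 3 in WT MDP, again with the region itself counted. At Btla, which encodes an inhibitory receptor of lymphocytes and dendritic cells, chr16:45226783-45227912 inside the gene had rows of 72.6 and 74.7%, 30.9 and 25.3%, and 17.3 and 15.1% over the same stages. Cadm1, an adhesion molecule of the cross-presenting dendritic cell lineage, had 2 regions inside the gene with late rows, a mean of 56.8% and 74.8% over the 6 lists. The other regions of the list were nearest to Ccr7 and Wdfy4.

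**Figure D4:**
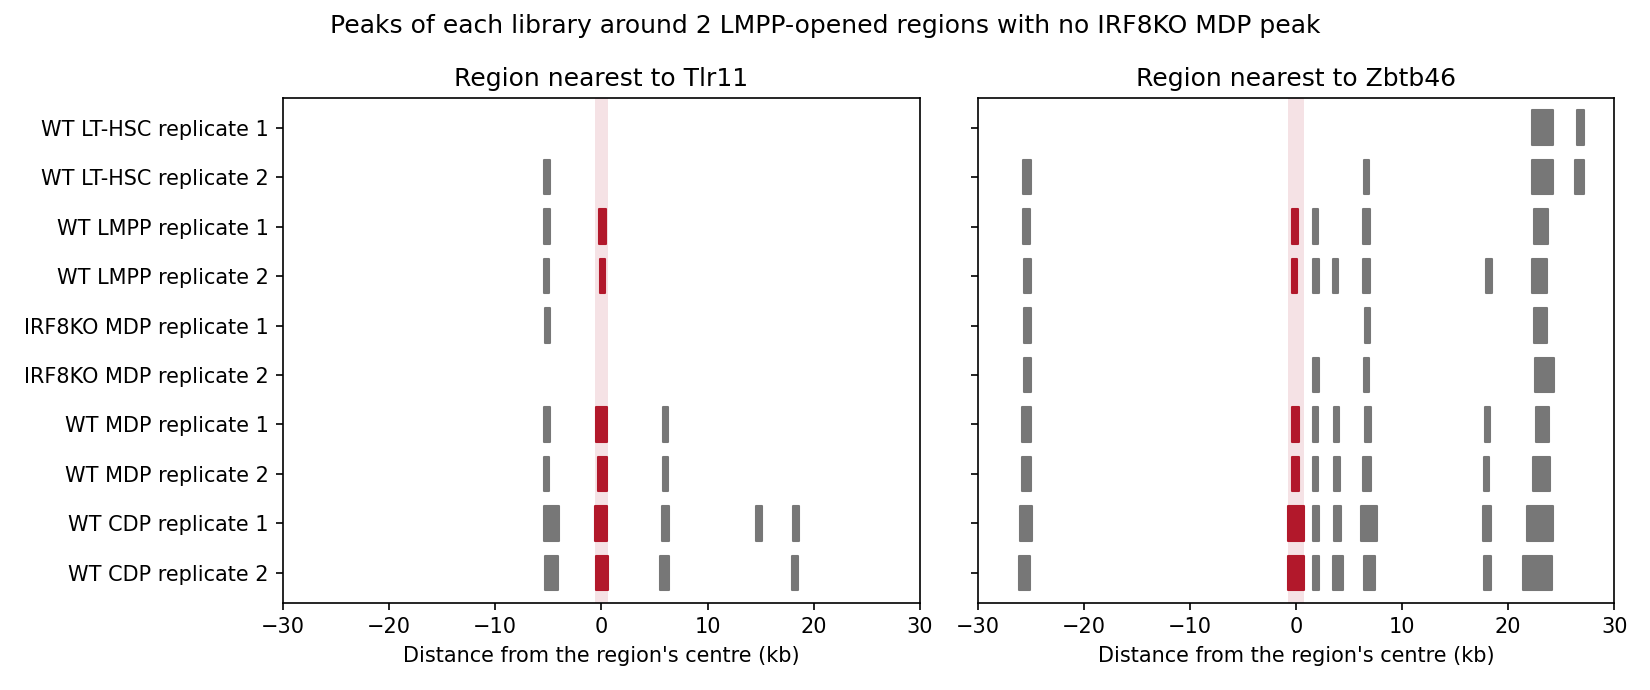
Peaks of all 10 libraries within 30 kb of the centre of the regions nearest to Tlr11 and Zbtb46, by distance in kb. Red boxes are peaks of the region itself, present in the 6 lists of LMPP, WT MDP and CDP, and grey boxes are other peaks. Of the 7 regions around Zbtb46 with a peak in both WT MDP libraries, the chosen one included, 3 and 4 are detected in the IRF8KO MDP libraries.

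Toll-like receptors and their signalling genes had 7 regions among 25 LMPP-opened ones (28.0%). Tlr4, the receptor of bacterial lipopolysaccharide, had 2 of them. The one inside the gene, chr4:66842859-66844080, had rows of 39.9 and 39.8% in LMPP, 21.0 and 15.1% in MDP and 18.8 and 18.5% in CDP, and the other, chr4:66816363-66817170, lay 10.8 kb outside it with rows between 46.1 and 63.8%. Inside the gene LMPP rows were the latest, and MDP and CDP rows overlapped. Ly96, whose product MD-2 binds lipopolysaccharide with TLR4, had a region 49.2 kb away at chr1:16758015-16759590. Its rows were 11.7 and 9.40% in LMPP, 36.5 and 25.4% in MDP and 21.9 and 20.3% in CDP. It was thus earliest in LMPP and latest in MDP, unlike the regions at Zbtb46 and Tlr11. The region 24.0 kb from Tlr2, the lipoprotein receptor, at chr3:83811707-83812882, had rows of 40.9 and 37.7%, 35.8 and 36.6%, and 31.4 and 33.2% over the stages, which were apart but within a narrow range. Tlr11 is in this list too, and Nfkb1 and Nfkbiz had the other regions.

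Receptors of chemokines and cytokines had 7 regions among 29 (24.1%). Ifnar1, a chain of the type I interferon receptor, had 2, of which chr16:91455518-91456936, 28.8 kb from the gene, had rows of 95.5 and 95.1% in LMPP, 29.6 and 25.3% in MDP and 17.3 and 20.6% in CDP. This peak was among the last in LMPP and much earlier in the MDP and CDP lists. Ccr6, the receptor of CCL20, had 2 regions inside the gene, with mean rows of 60.2 and 70.0%. Il3ra, the interleukin-3 receptor alpha chain, and Ccr7, which guides dendritic cells to lymph nodes, had 1 each with mean rows of 70.6 and 72.6%, and Cxcr5 had the other.

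Lymphoid priming genes had 6 regions among 21 (28.6%). Ikzf1 encodes Ikaros, a zinc finger factor of lymphoid and dendritic development. Its region chr11:11781458-11782523, 9.06 kb from the gene, had rows of 98.2 and 70.2% in LMPP, 15.5 and 14.9% in MDP and 15.2 and 17.3% in CDP. MDP and CDP overlapped here and LMPP stood apart. The second region, inside Ikzf1, had its latest rows in MDP, at 93.7 and 71.0%. Bcl11a, a factor of B cells and plasmacytoid dendritic cells, had a region 88.5 kb away at chr11:23987487-23988661 with rows of 24.6 and 19.2%, 20.4 and 32.7%, and 23.8 and 28.2%, so that the stages overlapped. Foxo1, which drives early B cell genes, had 2 regions with mean rows of 45.7 and 64.9%, and Il7r, the interleukin-7 receptor, had 1 at 76.7%.

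Stem cell genes had 4 regions among 11 (36.4%, 15.2 to 64.6%), 1 each at Fgd5, Meis1, Lmo2 and Kit. Fgd5, a marker of stem cells, had its region 3.14 kb outside the gene with a mean row of 40.4%. Meis1, a homeobox factor of stem cells, had one inside the gene whose rows were 47.4 and 34.3% in LMPP, 87.5 and 71.0% in MDP and 44.1 and 48.0% in CDP. MDP rows were the latest without overlap. Lmo2 and Kit had regions inside the gene at mean rows of 58.2 and 82.4%.

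**Figure D5:**
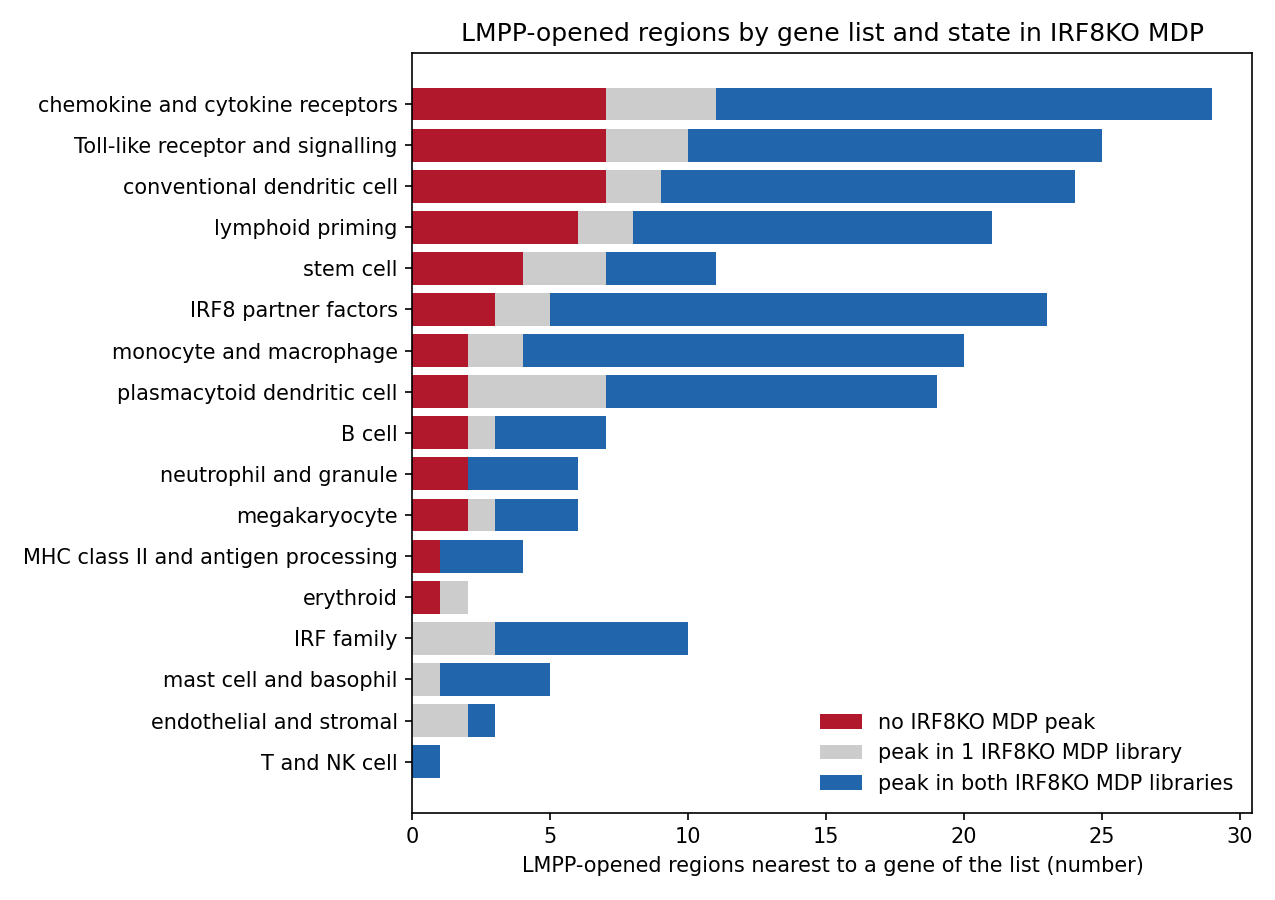
Number of LMPP-opened regions nearest to a gene of each list, split into those with no IRF8KO MDP peak (red), a peak in 1 IRF8KO MDP library (grey) and a peak in both (blue). Lists with no LMPP-opened region are not drawn; the red parts reach 7 of 24 to 29 regions in the dendritic cell, Toll-like receptor and receptor lists and 0 of 10 in the IRF family list.

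Monocyte, plasmacytoid and IRF family genes had few, with intervals that include the 25.4% of all LMPP-opened regions. Of all WT MDP regions nearest to these lists, in that order, 15.5, 22.9 and 9.62% had no IRF8KO MDP peak. The share of all WT MDP regions was 19.4%. The monocyte and macrophage list had 2 of 20 (10.0%, 2.79 to 30.1%), at Lyz2, which encodes lysozyme, and at Itgam, which encodes CD11b, with mean rows of 69.1 and 70.5%. The plasmacytoid list had 2 of 19 (10.5%), at Bcl11a and at Siglech, a lectin of plasmacytoid cells, where the rows lay between 68.3 and 82.1% in all 6 lists. Of 23 LMPP-opened regions near IRF8's partner factors, 3 were among the regions (13%), 2 at Ikzf1 and 1 inside Fli1, an ETS factor. Genes of the IRF family had 0 of 10, with an upper limit of 27.8%. Interferon response genes had no LMPP-opened region at all, although 61 WT MDP regions were nearest to them, of which 7 had no IRF8KO MDP peak.

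Of the MHC class II genes, Ciita, the master activator of class II expression, had the 1 region among 4, at chr16:10475761-10476574, 3.85 kb outside the gene, with rows of 61.5 and 74.6% in LMPP, 56.1 and 49.1% in MDP and 47.4 and 58.9% in CDP. The neutrophil list had 2 of 6, both at Gfi1, a repressor needed for granulocyte formation. Its region chr5:107707798-107708884, 8.31 kb from the gene, had rows of 71.0 and 80.8% in LMPP, 22.3 and 18.3% in MDP and 14.1 and 18.1% in CDP. LMPP stood apart from both later stages. Lists of other blood lineages had 2 of 7 for B cells (Bank1 and Ms4a1), 2 of 6 for megakaryocytes (Fli1 and Vwf), 1 of 2 for red cells (Ank1), 0 of 5 for mast cells and basophils, 0 of 3 for endothelial and stromal genes and 0 of 1 for T and NK cells, and housekeeping genes had no LMPP-opened region. In all, 40 regions were nearest to 33 of the 314 list genes, and the interval of each list with LMPP-opened regions includes the overall 25.4%.

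No gene had more than 4 of the regions. The 1361 regions with a gene were spread over 1197 genes, of which 142 had 2 or more, 18 had 3 or more and 4 had 4. Those 4 were Ctnnd2, a delta-catenin of cell junctions, Dock10, a guanine nucleotide exchange factor, Atp2b2, a calcium pump of the plasma membrane, and Dip2c. At Dip2c, 4 of 4 LMPP-opened regions and 7 of 8 WT MDP regions had no IRF8KO MDP peak. At Atp2b2 these counts were 4 of 5 and 6 of 10, at Dock10 they were 4 of 7 and 6 of 18, and at Ctnnd2 they were 4 of 9 and 6 of 15. Inside Ctnnd2, chr15:30660618-30662165 had rows of 10.6 and 9.38% in LMPP, 54.2 and 71.6% in MDP and 27.1 and 27.2% in CDP, the stages being apart and MDP the latest. Tnfsf15, Slc9a9, Lpp, Sv2b, Dennd5b, Ankub1 and Cd200r3 were among the next by the rule for named genes, with 3 each. Of the LMPP-opened regions there, 3 of 3 at Sv2b, at Ankub1 and at Cd200r3, a CD200 receptor family member, had no IRF8KO MDP peak, 3 of 4 at Tnfsf15, 3 of 5 at Dennd5b and 3 of 7 at Slc9a9 and at Lpp, against 25.4% overall. Of all WT MDP regions, 6 of 11 at Sv2b, 3 of 5 at Ankub1, 5 of 12 at Cd200r3, 5 of 10 at Tnfsf15, 4 of 9 at Dennd5b, 12 of 31 at Slc9a9 and 10 of 29 at Lpp had none. The genes were picked for their number of such regions, so these counts support nothing further. At Cd200r3, chr16:45004355-45006025 had rows of 84.4 and 95% in LMPP, 17.3 and 18.1% in MDP and 10.8 and 10.6% in CDP, again apart at every stage.

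The 10 regions with the earliest rows over the 6 WT lists lay inside genes, outside them or with no gene nearby. Over all 1516, the mean row of the 6 lists ran from 11.5 to 92.1% with a median of 55.0%, and the first 10 ran from 11.5 to 17.0%. Of these 10, 4 lay inside a gene (Samd12, Serpinb7, Clcn1 and Cep85l), 3 outside one (Macc1, Nucb2 and Mllt3) and 3 had no gene within 100 kb. The first was chr12:119482567-119484780, 16.7 kb from Macc1, with rows of 21.5 and 23.7% in LMPP, 7.67 and 9.26% in MDP and 3.52 and 3.39% in CDP. The region 86.6 kb from Mllt3, a subunit of the super elongation complex, at chr4:87682568-87684068, had rows of 35.3 and 35.8%, 7.05 and 11.4%, and 5.71 and 4.80%. In both the stages followed each other without overlap. The region inside Serpinb7, a serine protease inhibitor gene, at chr1:107446934-107448341, had rows of 11.3 and 9.56% in LMPP, 23.5 and 26.4% in MDP and 10.7 and 11.7% in CDP. MDP again had the latest rows, and LMPP and CDP overlapped. None of these 10 had a peak in either IRF8KO MDP library, as the rule requires.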

How the data were processed

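ATAC-seq peak lists of 10 libraries were used. The submitters' processing notes list Bowtie 1.1.2 and HOMER 4.9. Per the file headers, HOMER ran on each library alone at an FDR of 0.001, with peaks of 500 bp at first, set at least 1000 bp apart and 4-fold over local tags. A shift of reads for the transposase offset is not stated. The deposited files give peak positions (mm10) and a score that is 1 in every row, and no tag counts, so no count model was used and the depth behind a peak is unknown.

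Peaks on chromosomes 1 to 19 and X were merged at 1 bp overlap in Python 3.11.15 (pandas 2.3.3, scipy 1.17.1); the rule was tested on simulated lists. Groups came from sample titles. Libraries were compared by exact two-sided permutation tests over 2 against 2, which measure only the spread between these libraries. Intervals are 95% Wilson intervals. Of 349 entries in 19 gene lists, 316 were distinct and 314 of these matched a protein-coding symbol in RefSeq (GRCm38.p6). That table gives no strand, so distances are to gene ends. Named genes were the 12 with most regions, those of the 10 regions with the best mean row, and up to 4 per list with a region; a gene that this rule picks is not reported here. The regions, lists and tests were chosen with earlier results of these data known. Alternatives changed the merging overlap, peak extent, list length, distances and libraries.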

Additional observations from a re-analysis of the deposited data

How the results depend on the processing

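Among the alternatives run, merging at 100 bp gave 1511 regions (25.3% of LMPP-opened), cutting peaks to their central 200 bp 1440 (26.2%) and the first 75% of each list 1184 (25.6%). These sets overlapped 1510, 1297 and 544 of the 1516 regions, so under the stricter list 35.9% of the regions were found again. With equal list length there were 422 regions and the share was 23.8%. Counting gene ends at 2.5 kb in place of 1 kb gave 9.50%. Leaving out 1 library at a time gave 1542 to 2230 regions and shares of 17.7 to 33.5%, the lowest without LT-HSC replicate 2 and the highest without IRF8KO MDP replicate 2. The share of all WT MDP regions lost moved too. It was 25.7% without IRF8KO MDP replicate 2 and 23.2% without replicate 1, where 31.1% of LMPP-opened regions were lost. Without WT MDP replicate 1 or 2 it was 25.1 and 24.6%, against 28.0 and 27.3% of LMPP-opened regions. With the central 200 bp it was 22.4%. Leaving out 1 library gave 5.13 to 5.53% within 1 kb of a gene end, 41 to 57 regions near list genes, and ETS-IRF core shares of 10.4 to 17.9% of windows. Counting each region once in place of each window gave 13.2%. Row differences then ran from -10.7 to -7.56 points (MDP minus LMPP) and from -13.7 to -11.1 points (CDP minus MDP), and width differences from 126 to 127 bp and from 127.5 to 132.5 bp. The LMPP median lies at the most common width, 501 bp, so the narrow first range says nothing about stability. With the mean in place of the median the width differences were 43.0 and 186 bp. With the replicate block the differences of -9.15 and -12.4 points and of 126.5 and 130 bp had an exact permutation p of 0.5, the smallest that 2 pairs allow. Correlations of same-numbered libraries' deviations were -0.0674 to 0.0634 over 19483 regions. They give no sign of pairing by number, and cannot tell whether same-numbered libraries shared animals or a day. The stage differences kept their direction in these runs, but the only libraries left out for them were WT LMPP, MDP and CDP ones. The 1516 regions stayed the same there and the pairs of medians did not overlap, so leaving out 1 library could not turn the direction. The stage differences were not rerun without an LT-HSC or IRF8KO MDP library. The excess over the 19.4% of all WT MDP regions did not hold without LT-HSC replicate 2. The wider motif window was not run, because no genome was used here. Without tag counts, a missing peak cannot be told from one just under the calling threshold, and row position carries strength only if the lists are so ordered.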
